A study of Mus with 9 samples.

Results

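Cytochrome P450s and the xenobiotic conjugation families were examined in mouse heart tissue after myocardial infarction, with and without artesunate. Members were all genes whose symbol places them among the cytochrome P450s (Cyp), UDP-glucuronosyltransferases (Ugt), flavin monooxygenases (Fmo) or carboxylesterases (Ces). Glutathione S-transferases with a class letter (Gst) were members too, as were the regulators and partners Ahr, Ahrr, Por, Nr1i2 and Nr1i3. This gave 211 of the 55421 genes in the count table, namely 134 Cyp, 22 Ugt, 23 Gst, 7 Fmo and 20 Ces genes and the 5 regulators. The rule used gene symbols and not measured values.

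These families carry out drug and toxin metabolism in stages. Cyp and Fmo enzymes add oxygen to a substrate and carboxylesterases split esters (phase 1), after which Gst and Ugt enzymes attach glutathione or glucuronic acid (phase 2) so that the product can be exported. Most are known from the liver, but the same enzymes also act on lipids, sterols, retinoic acid and the products of lipid peroxidation, and members with such substrates are made in the heart. The aryl hydrocarbon receptor (Ahr), the pregnane X receptor (Nr1i2) and the constitutive androstane receptor (Nr1i3) are ligand-responsive transcription factors that control many of these genes.

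The 9 RNA-seq libraries came from male wild-type C57BL/6J mice, aged 8 to 10 weeks and weighing 20 to 23 g. The MI_ART group had permanent ligation of the left anterior descending coronary artery and artesunate, an artemisinin antimalarial. The MI group had the ligation and vehicle, which the labels give as DMSO, and the Sham group had the operation without ligation and vehicle. Each group has 3 libraries (MI_ART 1 to 3, MI 2 to 4, Sham 1 to 3). The labels conflict on artesunate, giving 25 mg/kg daily for 7 days in 1 place and 10 mg/kg every other day from 2 days before surgery in another. They also conflict on species wording and RNA extraction, and do not state the day of harvest. Nothing beyond the labels says that libraries came from separate animals, so the p-values describe only how far these libraries vary, which may be technical. In bulk tissue, fewer cells of a type and less RNA per cell cannot be told apart.

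The libraries held 68046341 to 83685313 counted reads. The tissue is labelled as atria, and ventricular muscle transcripts were present in every library. The summed level of 7 atrial muscle markers ran from 1347 CPM in MI_ART 3 to 25397 CPM in MI 4, the libraries at the extremes. None of the 7 atrial markers was called in either comparison with Sham. Markers of ventricular muscle and macrophages differed between groups. The sum of 6 ventricular muscle markers was 2931 to 4494 CPM in MI_ART libraries, 1661 to 3045 CPM in MI libraries and 7588 to 8460 CPM in Sham libraries, with 3 of 6 lower in MI. The sum of 8 macrophage markers was 1815 to 3473 CPM in MI_ART libraries, 2685 to 3137 CPM in MI libraries and 337 to 514 CPM in Sham libraries, with 8 of 8 higher in MI. Their part in the members' differences was not tested. Airway epithelial transcripts stood out in Sham 1, where Scgb1a1, the club cell secretoglobin, was at 123 CPM and Scgb3a2 at 18.7 CPM. Scgb3a2 had no read in any other library, and Scgb1a1 reached 0.0750 CPM elsewhere. The sum of 8 hepatocyte markers was 3.92 to 30.2 CPM in MI_ART libraries, 3.64 to 13.6 CPM in MI libraries and 5.67 to 9.14 CPM in Sham libraries. Of 4 tested, Ttr was called higher in MI_ART than Sham, with 25.8 CPM in MI_ART 1, and none was called in MI. Among the defining genes, Alb stayed at or below 0.632 CPM in every library and Fgb had no read.

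Many members had few or no reads, as did many genes of the whole table. A read was counted in at least 1 library for 108 of the 211 members and 29911 of the 55421 genes. The filter passed 72 members and 19326 genes, shares near each other. The 211 include 36 pseudogene or antisense entries, of which 2 were tested. No read was counted for 103 of the 211 members in any library, and a further 36 had reads but were too low to test, of which 34 had 50 reads or fewer in all 9 libraries together. The untested members were mostly from the liver-type clusters. No read was found for 60 of the 83 genes of Cyp families 2 and 3, and for 17 of the 22 Ugt genes. All 10 members of the Ugt2 cluster on chromosome 5 (86889770 to 87490871) had no read. In the Cyp2c cluster on chromosome 19 (38976662 to 40187286) 15 of 18 members had no read and none was tested, and in the Cyp3a cluster on chromosome 5 (145345149 to 146114978) 8 of 9 had no read and none was tested. By comparison, 21 of 23 Gst genes and 5 of 7 Fmo genes passed the filter. In all, 72 members were tested, comprising 32 Cyp, 3 Ugt, 21 Gst, 5 Fmo and 7 Ces genes and 4 regulators, and 30 of them averaged at least 10 CPM. CPM values here are reads scaled to library size after TMM and are not divided by gene length, so they are compared between libraries and not between genes.

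After infarction, more tested members were lower than higher, and the glutathione S-transferases, flavin monooxygenases and the Ces1 carboxylesterases made up most of those that fell. In MI against Sham, 11 members were called higher and 21 lower at an adjusted p under 0.05 in edgeR's quasi-likelihood test over all 19326 tested genes. Of all tested genes 33.1% were called, 18.8% higher and 14.3% lower, while 44.4% of the tested members were called, 15.3% higher and 29.2% lower. At an unadjusted p under 0.05 there were 41 members (56.9% of those tested), against 43.9% of all genes. Libraries of the groups did not overlap for 38 of 72 tested members, a share near the 48.9% of all tested genes. Of the tested members, 12 (16.7%) lay wholly above Sham and 26 (36.1%) wholly below it, against 25.7% and 23.2% of all tested genes. The median log2 fold change was -0.55 over the tested members and 0.04 over all tested genes. Por, Cyp4f18, Cyp4v3, Cyp7b1, Fmo5, Gsta3, Gstm4 and Gstm5 overlap other annotated genes, so their counts may include reads of those genes. Members counted here passed a filter on low counts, and 139 of the 211 did not.

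The scale of these differences depends on how libraries are compared. Scaling factors (TMM) were 1.14 to 1.28 in the MI_ART and MI libraries and 0.624 to 0.744 in the Sham libraries. With total counts alone the median log2 fold change over all genes in MI against Sham moved to 0.88. Then 19 of the 72 tested members were called higher and 12 lower, against 9527 higher and 644 lower of 19326 genes. The members' median was then 0.29, which is 0.59 below that of all genes, as it was with TMM. As a share of all counted reads, the members took 0.0992% to 0.121% in MI_ART libraries, 0.0924% to 0.132% in MI libraries and 0.0999% to 0.117% in Sham libraries, ranges that overlap. With total counts, 9 of the 21 lower calls in MI were lost, those of Ahrr, Cyp2j9, Cyp27a1, Fmo5, Gsta4, Gstm5, Gsto1, Gstt2 and Gstm2-ps1. In MI_ART against Sham 10 of 14 were lost, those of Cyp4b1, Fmo1, Fmo2, Gsta3, Gsta4, Gstm1, Gstm5, Gstm7, Gsto1 and Gstt2. Differences below are therefore relative to the bulk of genes. Leaving out Sham 1 left 7 members higher and leaving out Sham 2 left 5 higher, while the number lower ran from 17 to 28 over all single omissions. All-gene calls moved too, from 3631 higher to 2939 without Sham 1 and 2958 without Sham 2. The number of all genes lower ran from 1952 to 3081, against 2768 in the full fit. In each of 18 alternative settings 5 members remained higher (Cyp20a1, Cyp4f16, Cyp4f18, Cyp4v3 and Ugt1a7c), and 11 remained lower (Ces1d, Cyp1a1, Cyp26b1, Cyp3a13, Cyp4b1, Fmo1, Fmo2, Gsta3, Gstk1, Gstm1 and Gstm7).

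Among the regulators, the receptor itself did not pass the test while its repressor and the constitutive androstane receptor did. Ahr (chromosome 12, 35497979 to 35534989) was at 14.1, 12.1 and 12.3 CPM in MI_ART 1 to 3, at 12.4, 10.2 and 7.41 CPM in MI 2 to 4 and at 12.8, 12.2 and 12.04 CPM in Sham 1 to 3. MI libraries spanned the widest range and overlapped Sham, and the MI difference of -0.31 ± 0.21 on the log2 scale (± SE throughout) did not pass the test (adjusted p = 0.284). Ahrr (chromosome 13, 74211118 to 74292331), the Ahr repressor and itself an Ahr target, had 3.92, 2.37 and 3.98 CPM in MI_ART libraries, 3.03, 2.24 and 1.08 CPM in MI libraries and 5.18, 6.85 and 4.86 CPM in Sham libraries. It fell 2.66-fold in MI (log2 -1.41 ± 0.38, adjusted p = 0.0185), with MI and Sham libraries apart. That call was lost without Sham 2, where the adjusted p was 0.0656, and with total counts (log2 -0.59, adjusted p = 0.227). In MI_ART against Sham the change was -0.72 (adjusted p = 0.222), although all MI_ART libraries lay below Sham.

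Nr1i3 (chromosome 1, 171213934 to 171218845) had 0.530, 0.962 and 0.555 CPM in MI_ART libraries, 1.97, 4.57 and 1.15 CPM in MI libraries and 0.940, 0.652 and 0.440 CPM in Sham libraries. All 3 MI libraries were above the other 6, and MI 3 was the highest. It rose 3.78-fold in MI over Sham (log2 1.92 ± 0.56, adjusted p = 0.0249), a call lost without Sham 2, Sham 3 or MI 3, with an adjusted p of up to 0.115. In MI_ART against Sham the log2 difference was 0.01, and in MI_ART against MI it was -1.91 ± 0.55 (adjusted p = 0.656). Nr1i3 overlaps the gene Tomm40l in the annotation, so its count is uncertain. Nr1i2 was too low to test, with 12 reads in Sham 1, 5 in MI 4 and 0 in every other library.

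Por (chromosome 5, 135670040 to 135735326), which passes electrons from NADPH to the microsomal P450s, had 43.5, 33.2 and 34.6 CPM in MI_ART libraries, 34.8, 32.6 and 76.8 CPM in MI libraries and 33.2, 39.1 and 17.7 CPM in Sham libraries. The groups overlapped, and MI 4 and Sham 3 were the extremes. Neither comparison with Sham passed the test (log2 0.68 ± 0.37 for MI, adjusted p = 0.186, and 0.31 for MI_ART, adjusted p = 0.619).

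The 3 Cyp1 genes, the classical Ahr targets, went different ways. Cyp1a2 had no read in any library. Cyp1a1 (chromosome 9, 57687928 to 57703824) had 0, 16 and 8 reads in MI_ART 1 to 3, 0 reads in each of MI 2 to 4 and 86, 82 and 106 reads in Sham 1 to 3. All 3 Sham libraries were thus higher than the other 6, in which the transcript was at or near 0. Set at 3 reads per library, MI was at least 53.1-fold lower than Sham (adjusted p = 0.00229), and this call held in all 18 alternative settings. In MI_ART against Sham the log2 fold change was -4.11 ± 1.03 (adjusted p = 0.0277), which was lost without any single Sham library or without MI_ART 3, with an adjusted p of up to 0.0913.

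Cyp1b1 (chromosome 17, 79706940 to 79715061), which oxidises oestrogens and retinoids and is made by stromal cells, had 31.9, 23.1 and 40.5 CPM in MI_ART libraries, 24.9, 42.0 and 25.9 CPM in MI libraries and 1.47, 8.35 and 13.3 CPM in Sham libraries. All 6 infarcted libraries exceeded the 3 Sham libraries, which themselves differed 9.04-fold. It rose 4.01-fold in MI (log2 2.00 ± 0.61, adjusted p = 0.0299) and 4.13-fold in MI_ART (log2 2.05 ± 0.61, adjusted p = 0.0409) over Sham. Without Sham 2 or MI 3, or without MI 4 and MI_ART 3 together, the MI call was lost (adjusted p up to 0.0846), and the MI_ART call was lost in 6 of 9 single omissions (up to 0.114). Beside this, the summed level of 8 fibroblast markers was 6749 to 7543 CPM in MI_ART libraries, 6965 to 7862 CPM in MI libraries and 3417 to 3765 CPM in Sham libraries, with 5 higher and 2 lower in MI. Their part in the result was not tested.

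**Figure D1:**
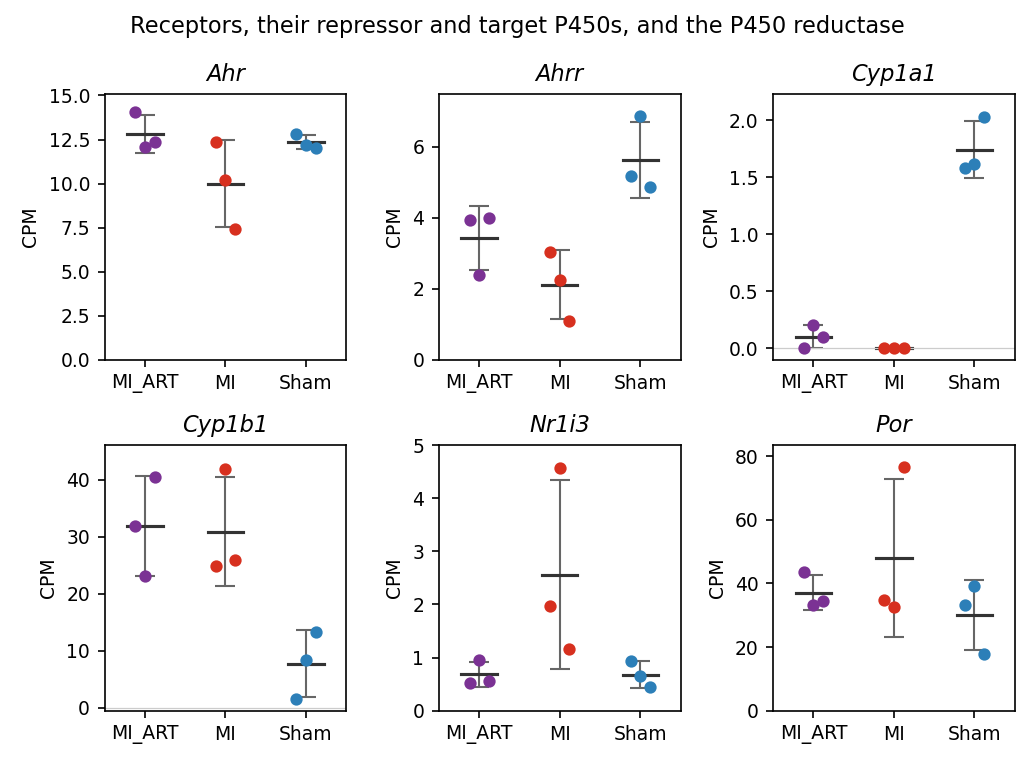
Level in CPM (y axis) of the regulators and Cyp1 genes in each library (points) of MI_ART, MI and Sham, with the group mean ± SD. Cyp1a1 reaches 1.58 to 2.03 CPM in Sham and 0 in MI, whereas Cyp1b1 is at 23.1 CPM or more in every infarcted library and at most 13.3 CPM in Sham.

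In Cyp families 2 and 3, whose members metabolise most drugs in liver, 12 of 83 genes were tested. In MI 2 fell and 0 rose, and the share that fell was near the 14.3% of all tested genes called lower. Cyp3a13 (chromosome 5, 137892933 to 137925610) had 0.321, 0.687 and 0.493 CPM in MI_ART libraries, 0.0569, 0.204 and 0.140 CPM in MI libraries and 0.848, 1.09 and 1.78 CPM in Sham libraries. The 3 groups did not overlap, with MI lowest and MI_ART between. It fell 9.15-fold in MI against Sham (log2 -3.19 ± 0.61, adjusted p = 0.00337). In MI_ART the difference from Sham was -1.30 (adjusted p = 0.138) and that from MI 1.89 ± 0.59 (adjusted p = 0.683).

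Cyp2j9 was the other to fall, and was chosen for naming after its values were seen. Cyp2j enzymes turn arachidonic acid into epoxides. Cyp2j9 had 2.59, 2.89 and 2.70 CPM in MI_ART libraries, 1.24, 1.95 and 1.97 CPM in MI libraries and 3.17, 3.02 and 4.12 CPM in Sham libraries, 1.99-fold lower in MI than Sham (log2 -0.996 ± 0.28, adjusted p = 0.0201, up to 0.0729 without Sham 3 or MI 2). Again the 3 groups did not overlap. Cyp2d22 (chromosome 15, 82370527 to 82380260), a drug-metabolising P450, had 16.6, 27.97 and 19.5 CPM in MI_ART libraries, 23.2, 17.2 and 26.98 CPM in MI libraries and 29.4, 36.9 and 33.6 CPM in Sham libraries. Both infarcted groups lay below Sham in every library, but neither comparison passed the test (adjusted p = 0.0927 for MI and 0.0868 for MI_ART). The group's median log2 fold change in MI was -0.53, and 0.32 with total counts.

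Several members were high in single libraries, and were picked out after their values were seen. Cyp2a5, a coumarin hydroxylase of liver and airway, had 1988 reads (36.6 CPM) in Sham 1 and none elsewhere. Cyp2f2, the naphthalene-oxidising P450 of airway club cells, was at 67.4 CPM in Sham 1, 0.632 CPM in Sham 2 and 0 in Sham 3, and between 0 and 0.614 CPM in the 6 infarcted libraries. Its log2 fold change in MI against Sham was -6.65 ± 2.43 (adjusted p = 0.0599), which became a call only without Sham 3. These are the genes that moved with the airway transcripts of Sham 1 given above. The sum of 10 lung epithelial markers was 71.3 to 98.0 CPM in MI_ART libraries, 36.3 to 80.3 CPM in MI libraries and 183 to 354 CPM in Sham libraries. Most of it was Hopx, which heart muscle also makes, at 70.2 to 96.6 CPM in MI_ART libraries, 33.8 to 79.6 CPM in MI libraries and 183 to 257 CPM in Sham libraries. Of the list only Hopx and Ager passed the filter, Hopx being lower in both infarcted groups and Ager higher in MI. Of the other markers, Sftpd (1.77 CPM) also had reads in Sham 1 alone, Foxj1 was at 1.22 CPM there and at most 0.0616 CPM elsewhere, and Sftpc, which defines alveolar type II cells, had no read in any library. The part of airway tissue in the members' values was not tested.

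A different set of libraries was high for Cyp2e1, the ethanol-oxidising P450, which adipocytes also express and which was picked out after its values were seen. It had 1.15, 40.3 and 2.90 CPM in MI_ART 1 to 3, 1.04, 0.718 and 39.1 CPM in MI 2 to 4 and 20.5, 10.3 and 7.58 CPM in Sham 1 to 3. The infarcted groups each had 1 high and 2 low libraries, and the difference between MI and Sham was 0.09 ± 1.49 (adjusted p = 0.971). The adipocyte genes Adipoq (24.8 CPM in MI_ART 2, 48.1 CPM in MI 4) and Plin1 (14.3 CPM and 24.4 CPM) were high in the same 2 libraries. Ces1f, picked out in the same way, was likewise highest among infarcted libraries in MI_ART 2 (2.46 CPM) and MI 4 (1.99 CPM). Plin1 was at 0.182 to 0.765 CPM in the other infarcted libraries and at 2.35 to 10.2 CPM in Sham libraries. The sum of 6 white adipocyte markers was 448 to 688 CPM in MI_ART libraries, 360 to 872 CPM in MI libraries and 804 to 929 CPM in Sham libraries, with 1 of 6 called lower in each comparison with Sham. The part of fat tissue in these values was not tested.

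**Figure D2:**
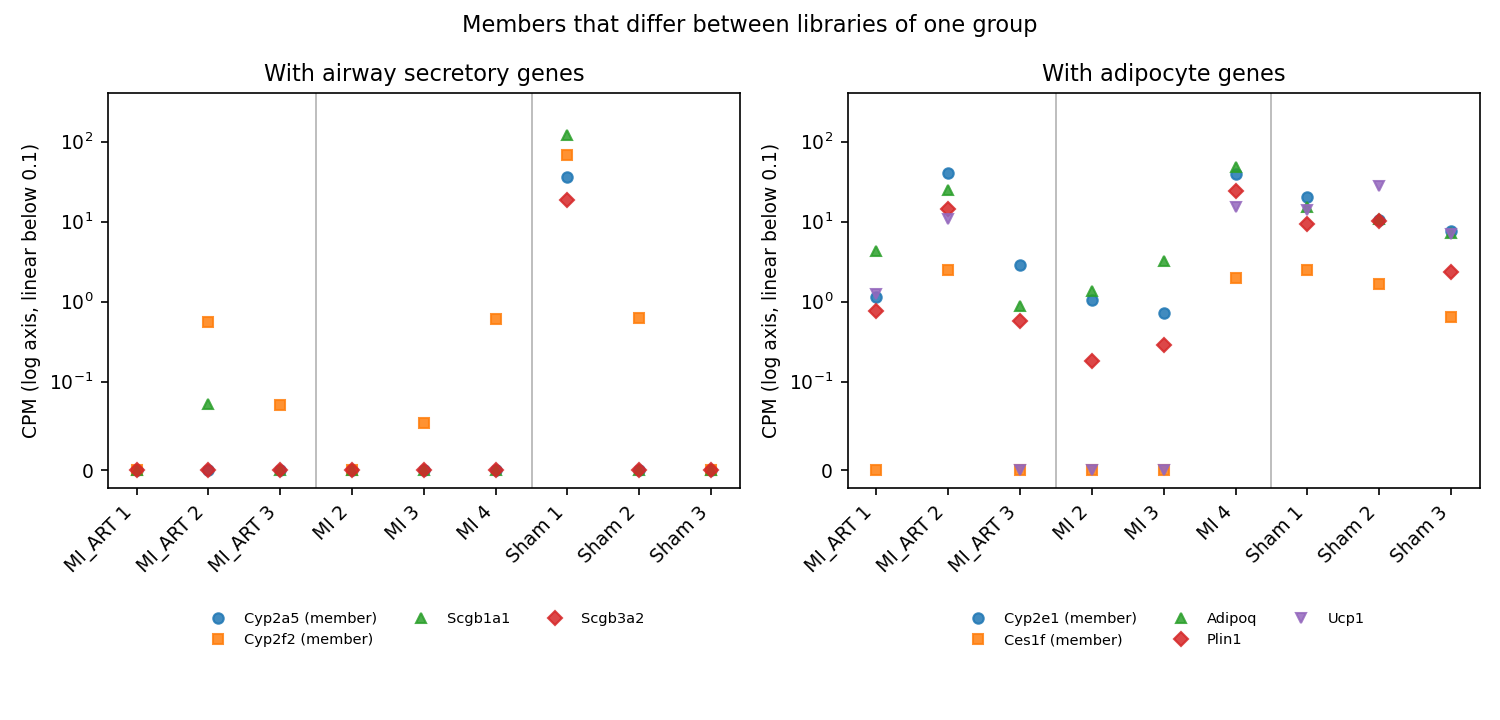
CPM (log axis, linear below 0.1) in each of the 9 libraries for members that differ within a group, drawn beside marker genes of airway and adipose cells. Cyp2a5 and Cyp2f2 peak in Sham 1 with Scgb1a1, and Cyp2e1 and Ces1f are higher in MI_ART 2 and MI 4 than in the other infarcted libraries, as are Adipoq and Plin1.

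Cyp family 4 holds the fatty acid and eicosanoid hydroxylases. Of its 9 tested genes, 3 rose and 1 fell in MI against Sham, and the 3 that rose had no overlap between groups. Over all tested genes 18.8% were called higher and 14.3% lower. Cyp4f18 (chromosome 8, 71988482 to 72009668), which inactivates leukotriene B4 in mouse neutrophils, had 14.8, 6.85 and 15.0 CPM in MI_ART libraries, 11.7, 11.7 and 24.2 CPM in MI libraries and 0.848, 0.474 and 1.17 CPM in Sham libraries. Every infarcted library was above every Sham library, and MI_ART 2 was the lowest of the 6. It rose 19.1-fold in MI (log2 4.25 ± 0.48, adjusted p = 0.000230) and 14.7-fold in MI_ART (log2 3.88 ± 0.48, adjusted p = 0.000558) over Sham.

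Markers of neutrophils moved with Cyp4f18. The summed level of 6 neutrophil genes was 86.4, 17.7 and 53.6 CPM in MI_ART 1 to 3, 53.8, 47.0 and 112 CPM in MI 2 to 4 and 1.55, 1.32 and 1.34 CPM in Sham 1 to 3. In MI 6 of 6 were called higher and in MI_ART 5 of 6, and Mmp8 had no read in any Sham library. MI_ART 2 was the lowest infarcted library and MI 4 the highest in both measures. The sum of 8 macrophage markers was also lowest among infarcted libraries in MI_ART 2 (1815 CPM), but highest in MI_ART 3 (3473 CPM). The part of neutrophil or macrophage number in Cyp4f18 was not tested.

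Cyp4f16 (chromosome 17, 32536545 to 32551798), another member of the Cyp4f subfamily, had 13.9, 10.4 and 15.2 CPM in MI_ART libraries, 13.7, 15.0 and 26.1 CPM in MI libraries and 6.74, 9.08 and 7.39 CPM in Sham libraries. It rose 2.36-fold in MI (log2 1.24 ± 0.28, adjusted p = 0.00741), and the MI_ART difference of 0.77 ± 0.28 did not pass the test (adjusted p = 0.0784). Cyp4v3 (chromosome 8, 45305801 to 45333163), an omega-hydroxylase of fatty acids, had 15.0, 12.2 and 17.2 CPM in MI_ART libraries, 15.6, 13.8 and 12.7 CPM in MI libraries and 8.66, 7.76 and 8.48 CPM in Sham libraries. It rose by 0.76 ± 0.18 on the log2 scale in MI (adjusted p = 0.0108) and by 0.83 ± 0.18 in MI_ART (adjusted p = 0.0116, and 0.0584 without MI_ART 3).

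Cyp4b1 (chromosome 4, 115624698 to 115647721), which hydroxylates medium-chain fatty acids and activates protoxins in lung, varied little within groups. It had 18.9, 16.1 and 18.9 CPM in MI_ART libraries, 11.6, 9.87 and 10.8 CPM in MI libraries and 38.9, 38.8 and 38.3 CPM in Sham libraries. Within a group the libraries differed by at most 1.18-fold, and the 3 groups did not overlap. It fell 3.60-fold in MI (log2 -1.85 ± 0.15, adjusted p = 7.61e-05) and 2.15-fold in MI_ART (log2 -1.11 ± 0.15, adjusted p = 0.000893) against Sham. The MI_ART call was lost with total counts, where the difference was -0.37 (adjusted p = 0.0932).

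The P450s of sterol, steroid, retinoid and vitamin D metabolism, with the orphan Cyp20a1 among them, numbered 20, of which 9 were tested. In MI 4 rose and 2 fell, against 18.8% higher and 14.3% lower over all tested genes. Cyp20a1 (chromosome 1, 60343300 to 60388060), with no settled substrate, had 25.5, 21.2 and 21.7 CPM in MI_ART libraries, 23.95, 28.04 and 25.5 CPM in MI libraries and 14.1, 14.7 and 16.1 CPM in Sham libraries. It rose 1.72-fold in MI (log2 0.79 ± 0.15, adjusted p = 0.00381) and 1.52-fold in MI_ART (log2 0.61 ± 0.15, adjusted p = 0.0215). The MI call held in all settings, and the MI_ART call was lost without any of Sham 1, Sham 2, MI_ART 1 or MI_ART 3 (adjusted p up to 0.107).

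Cyp51 (chromosome 5, 4080674 to 4104697), the lanosterol demethylase of cholesterol synthesis, had 22.8, 17.2 and 18.0 CPM in MI_ART libraries, 21.9, 26.8 and 20.95 CPM in MI libraries and 13.5, 16.7 and 15.7 CPM in Sham libraries. It rose 1.52-fold in MI (log2 0.60 ± 0.18, adjusted p = 0.0297), a call lost without any single Sham library, MI 3 or MI_ART 3 (up to 0.113), and was not called in MI_ART (log2 0.33, adjusted p = 0.235). Cyp7b1 (chromosome 3, 18071944 to 18243890), which hydroxylates oxysterols, had 2.43, 3.15 and 3.85 CPM in MI_ART libraries, 2.04, 3.61 and 3.17 CPM in MI libraries and 1.03, 1.07 and 1.59 CPM in Sham libraries. It rose 2.39-fold in MI (adjusted p = 0.0163) and 2.55-fold in MI_ART (adjusted p = 0.0186), with both calls lost without Sham 1 or Sham 2 and also without MI 3 for MI and without MI_ART 3 for MI_ART (up to 0.0604 and 0.0734). Cyp27a1 (chromosome 1, 74713148 to 74737897), the mitochondrial sterol hydroxylase, went the other way, at 24.3, 29.1 and 35.6 CPM in MI_ART libraries, 25.5, 19.6 and 24.01 CPM in MI libraries and 39.2, 34.7 and 46.6 CPM in Sham libraries. It fell 1.74-fold in MI (log2 -0.80 ± 0.20, adjusted p = 0.0115), and with total counts its difference was 0.05.

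Of the enzymes that clear retinoic acid, Cyp26a1 and Cyp26b1 were tested, and they were called in opposite directions in MI. Cyp26a1 (chromosome 19, 37697738 to 37701536) had 1.46, 0.362 and 0.296 CPM in MI_ART libraries, 1.89, 1.30 and 1.69 CPM in MI libraries and 0.240, 0.237 and 0.574 CPM in Sham libraries. It rose 4.63-fold in MI (log2 2.21 ± 0.68, adjusted p = 0.0308), which was lost without Sham 1, Sham 2, MI 2 or MI 4 (up to 0.1002), and MI_ART overlapped both other groups (log2 1.01 against Sham, adjusted p = 0.333). Cyp26b1 (chromosome 6, 84571414 to 84593908) had 0.469, 0.825 and 0.912 CPM in MI_ART libraries, 0.637, 0.397 and 1.10 CPM in MI libraries and 2.06, 5.29 and 3.10 CPM in Sham libraries. All infarcted libraries were below Sham. It fell 4.89-fold in MI (log2 -2.29 ± 0.51, adjusted p = 0.00691) and 4.73-fold in MI_ART (log2 -2.24 ± 0.51, adjusted p = 0.0128, up to 0.0571 without Sham 2 or MI_ART 1).

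The flavin monooxygenases, which oxidise nitrogen and sulphur in drugs and amines, mostly fell. Of 5 tested genes 3 were lower and 0 higher in MI, against 14.3% lower and 18.8% higher over all tested genes. The median log2 fold change was -1.80, and -0.95 with total counts. Their summed level was 56.9 to 89.7 CPM in MI_ART libraries, 32.1 to 51.7 CPM in MI libraries and 129 to 177 CPM in Sham libraries. Fmo1 (chromosome 1, 162829561 to 162866610) had 25.2, 28.6 and 27.4 CPM in MI_ART libraries, 22.2, 13.7 and 15.9 CPM in MI libraries and 49.6, 61.9 and 68.6 CPM in Sham libraries. The 3 groups were separate, with MI_ART between. It fell 3.47-fold in MI (log2 -1.80 ± 0.21, adjusted p = 0.000281) and 2.22-fold in MI_ART (log2 -1.15 ± 0.21, adjusted p = 0.00443).

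Fmo2 (chromosome 1, 162874317 to 162898758), the form best known from lung, lies in the same cluster. It had 21.4, 43.4 and 20.4 CPM in MI_ART libraries, 18.2, 9.40 and 23.8 CPM in MI libraries and 55.1, 91.0 and 65.6 CPM in Sham libraries. It fell 4.12-fold in MI (log2 -2.04 ± 0.40, adjusted p = 0.00365) and 2.48-fold in MI_ART (log2 -1.31 ± 0.39, adjusted p = 0.0405), and the MI_ART call was lost in 6 of 9 single omissions (up to 0.151). Fmo5, named after its values were seen, fell 2.62-fold in MI (adjusted p = 0.0321, up to 0.0771 without any single Sham library or MI 3), with 9.73 to 16.0 CPM in MI_ART libraries, 2.62 to 10.6 CPM in MI libraries and 18.6 to 19.8 CPM in Sham libraries.

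In the carboxylesterases 2 of 7 tested genes fell and 1 rose in MI, against 14.3% lower and 18.8% higher over all tested genes. Ces1d (chromosome 8, 93166072 to 93197804) hydrolyses triacylglycerol and drug esters. It had 20.7, 46.8 and 26.2 CPM in MI_ART libraries, 13.4, 7.88 and 16.1 CPM in MI libraries and 160, 187 and 169 CPM in Sham libraries. Every infarcted library lay below Sham, and every MI_ART library exceeded every MI library. It fell 13.8-fold in MI (log2 -3.79 ± 0.36, adjusted p = 0.000117) and 5.504-fold in MI_ART (log2 -2.46 ± 0.34, adjusted p = 0.00111) against Sham, and both calls held in all 18 alternative settings.

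Of the other tested carboxylesterases, Ces1e fell and Ces2g rose in MI. Ces1e, next to Ces1d and named after its values were seen, had 0.237 to 0.284 CPM in MI_ART libraries, 0 to 0.161 CPM in MI libraries and 0.823 to 1.86 CPM in Sham libraries (log2 -3.68 ± 0.97 in MI, adjusted p = 0.0158, and 0.0616 without Sham 1). Ces2g (chromosome 8, 104961596 to 104969537), of the Ces2 group known for splitting drug esters in gut and liver, had 8.72, 9.73 and 8.04 CPM in MI_ART libraries, 9.33, 7.43 and 9.71 CPM in MI libraries and 5.45, 5.63 and 5.47 CPM in Sham libraries. It rose 1.60-fold in MI (adjusted p = 0.0189) and 1.60-fold in MI_ART (adjusted p = 0.0287). The MI call was lost without any single Sham library or MI 2 (adjusted p up to 0.0616), and the MI_ART call without any single Sham or MI_ART library (up to 0.0923).

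**Figure D3:**
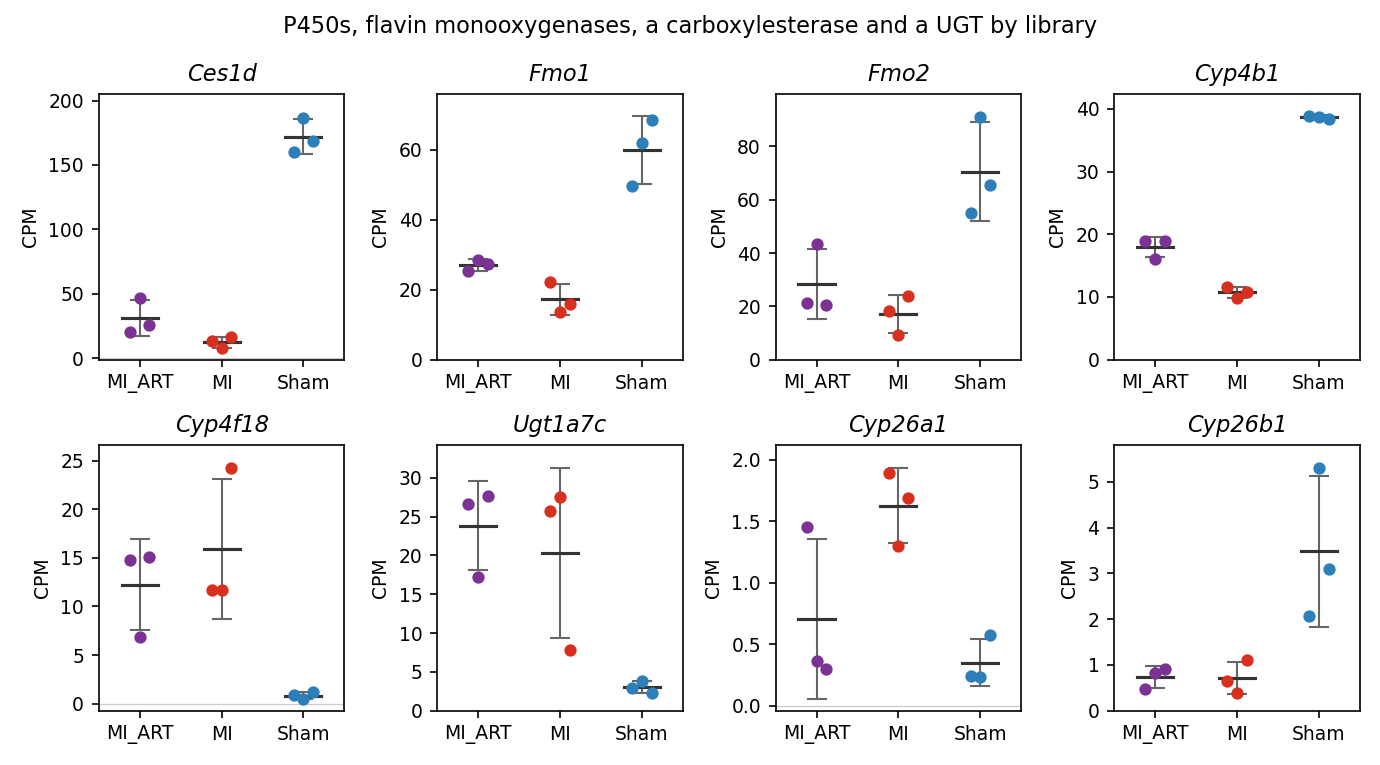
Level in CPM (y axis) of phase 1 members and the conjugation enzyme Ugt1a7c in each library of MI_ART, MI and Sham. Points are libraries, drawn with the group mean ± SD. In Ces1d, Fmo1 and Cyp4b1 every MI_ART library lies above every MI library and below every Sham library, and Cyp4f18 is high in both infarcted groups.

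All glutathione S-transferases that passed the test in MI were lower. Of 21 tested Gst genes 9 fell and 0 rose in MI against Sham, and 8 fell and 0 rose in MI_ART against Sham. Over all tested genes 14.3% were called lower in MI and 7.41% in MI_ART. Their median log2 fold change was -0.76 in MI, which became 0.06 with total counts, where 4 fell and 2 rose. Over all 19326 tested genes, 644 fell and 9527 rose in that setting. The summed Gst level was 435 to 571 CPM in MI_ART libraries, 364 to 539 CPM in MI libraries and 857 to 971 CPM in Sham libraries. As a share of all reads, Gst genes took 0.0506% to 0.0653% in MI_ART libraries, 0.0462% to 0.0692% in MI libraries and 0.0606% to 0.0667% in Sham libraries, and these ranges overlap.

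The mu class conjugates electrophiles in the cytosol, and its genes lie together on chromosome 3 (107895854 to 108045179). Of the 6 tested there, Gstm1, Gstm5 and Gstm7 fell in MI. Gstm1 (108012250 to 108017973) had 105, 139 and 116 CPM in MI_ART libraries, 114, 62.9 and 97.6 CPM in MI libraries and 221, 240 and 299 CPM in Sham libraries. It fell 2.77-fold in MI (log2 -1.47 ± 0.24, adjusted p = 0.00142) and 2.11-fold in MI_ART (log2 -1.08 ± 0.24, adjusted p = 0.0113, and 0.0589 without MI_ART 1). Gstm7 (107926334 to 107931877) had 13.2, 21.5 and 19.5 CPM in MI_ART libraries, 18.3, 12.01 and 10.3 CPM in MI libraries and 43.1, 40.6 and 48.5 CPM in Sham libraries. It fell 3.25-fold in MI (adjusted p = 0.000966) and 2.43-fold in MI_ART (adjusted p = 0.00696). For both genes the infarcted groups overlapped each other and lay wholly below Sham.

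Other mu genes of the cluster differed less. Gstm5 (107895854 to 107898685) had 23.0, 26.95 and 21.9 CPM in MI_ART libraries, 26.8, 22.9 and 34.0 CPM in MI libraries and 38.98, 37.7 and 45.8 CPM in Sham libraries. It fell 1.70-fold in MI_ART (log2 -0.77 ± 0.19, adjusted p = 0.0174, up to 0.0767 without Sham 3, MI_ART 1 or MI_ART 3) and 1.46-fold in MI (adjusted p = 0.0454), the MI call being held in 5 of 18 alternative settings and its sign turned with total counts (0.31). Gstm2 (107981702 to 107986420) had 64.0, 79.1 and 61.1 CPM in MI_ART libraries, 66.7, 55.9 and 103 CPM in MI libraries and 98.3, 94.1 and 109 CPM in Sham libraries. MI 4 lay within the Sham range, and neither comparison passed the test (adjusted p = 0.189 for MI and 0.115 for MI_ART), while without MI 4 the MI comparison did. Gstm4, which sits beside Gstm1 and was named after its values were seen, differed by 0.01 ± 0.19 on the log2 scale in MI (adjusted p = 0.978). Because mu genes are near-identical in places, reads may have been split between them.

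Gstk1 (chromosome 6, 42245935 to 42250441), is the kappa enzyme of mitochondria and peroxisomes. It had 27.4, 35.9 and 31.4 CPM in MI_ART libraries, 27.6, 20.3 and 23.5 CPM in MI libraries and 81.6, 86.5 and 102 CPM in Sham libraries. It fell 3.79-fold in MI (log2 -1.92 ± 0.18, adjusted p = 0.000117) and 2.86-fold in MI_ART (log2 -1.51 ± 0.18, adjusted p = 0.000493) against Sham, in all 18 alternative settings.

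In the alpha class 2 of 4 tested genes fell in each comparison with Sham. Gsta4 (chromosome 9, 78191966 to 78209349), which detoxifies the lipid peroxidation product hydroxynonenal, had 27.6, 41.7 and 37.1 CPM in MI_ART libraries, 35.2, 25.2 and 32.7 CPM in MI libraries and 77.9, 58.9 and 88.1 CPM in Sham libraries. It fell 2.42-fold in MI (adjusted p = 0.00210) and 2.11-fold in MI_ART (adjusted p = 0.00818). With total counts neither call remained (adjusted p = 0.111 and 0.216). Gsta3 (chromosome 1, 21240565 to 21265575), which lies apart from the other alpha genes, had 3.86, 2.97 and 2.00 CPM in MI_ART libraries, 2.21, 1.06 and 1.55 CPM in MI libraries and 6.71, 5.55 and 10.4 CPM in Sham libraries. It fell 4.69-fold in MI (log2 -2.23 ± 0.38, adjusted p = 0.00179) and 2.56-fold in MI_ART (adjusted p = 0.0282, up to 0.116 without Sham 1, Sham 3, MI_ART 2 or MI_ART 3).

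The omega enzyme Gsto1 (chromosome 19, 47854973 to 47864790), which reduces dehydroascorbate and mixed disulphides, had 79.1, 78.2 and 96.3 CPM in MI_ART libraries, 74.6, 75.0 and 71.1 CPM in MI libraries and 122, 129 and 123 CPM in Sham libraries. The groups were separate and tight. It fell 1.69-fold in MI (log2 -0.76 ± 0.14, adjusted p = 0.00318) and 1.47-fold in MI_ART (log2 -0.56 ± 0.14, adjusted p = 0.0222, up to 0.112 without any Sham library, MI_ART 1 or MI_ART 2), and with total counts the differences turned to 0.08 and 0.18. Gstp1 (chromosome 19, 4035411 to 4037912), the pi enzyme, had 36.3, 60.4 and 41.8 CPM in MI_ART libraries, 43.7, 27.04 and 69.2 CPM in MI libraries and 45.1, 75.0 and 35.7 CPM in Sham libraries. Its groups overlapped throughout (log2 -0.16 ± 0.37 in MI, adjusted p = 0.782), and none of the 3 tested pi genes was called. Of the 3 tested theta genes 1 fell, Gstt2, which was named after its values were seen (2.00-fold lower in MI, adjusted p = 0.0499, held in 7 of 18 alternative settings). The remaining call was the pseudogene Gstm2-ps1, also named after its values were seen (adjusted p = 0.0205, up to 0.0835 without Sham 3 or MI 3, and lost with total counts).

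**Figure D4:**
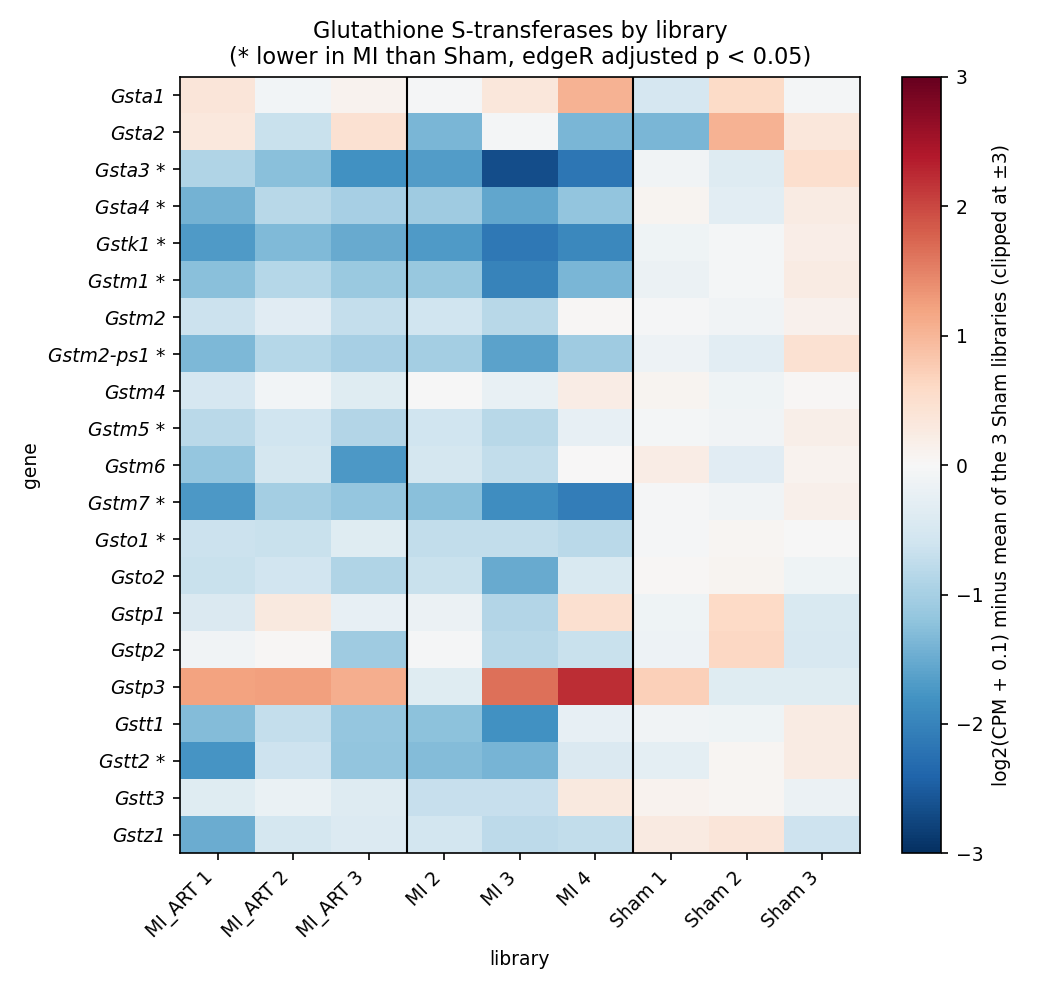
Colour gives log2(CPM + 0.1) minus the mean of the 3 Sham libraries for each tested Gst gene (rows) in each library (columns, MI_ART, MI, Sham), clipped at ± 3. Gstk1, Gstm7, Gsta3 and Gstm1 are below Sham in all 6 infarcted libraries, while Gstp1 and Gstm4 show no such block.

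In the Ugt family 3 of 22 genes were tested, all from the Ugt1a cluster. Of these 1 rose in MI, against 18.8% of all tested genes. Ugt1a7c (chromosome 1, 88095001 to 88220002), a glucuronosyltransferase of phenols, had 26.6, 17.2 and 27.6 CPM in MI_ART libraries, 25.7, 27.5 and 7.78 CPM in MI libraries and 2.93, 3.83 and 2.297 CPM in Sham libraries. All infarcted libraries exceeded Sham, with MI 4 the lowest of them. It rose 6.73-fold in MI (log2 2.75 ± 0.45, adjusted p = 0.00147) and 7.88-fold in MI_ART (log2 2.98 ± 0.45, adjusted p = 0.00175), in all 18 alternative settings.

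Ugt1a6a (chromosome 1, 88134809 to 88220002) had 4.50, 4.10 and 5.30 CPM in MI_ART libraries, 3.86, 2.45 and 15.1 CPM in MI libraries and 3.80, 1.42 and 2.81 CPM in Sham libraries, and was not called (log2 1.41 ± 0.62 in MI, adjusted p = 0.108). MI 4, where Ugt1a7c was lowest among infarcted libraries, had the highest Ugt1a6a. Ugt1a genes have separate first exons and share those downstream. Ugt1a7c overlaps 14 annotated genes and Ugt1a6a 13, so how reads were divided among them is uncertain. The summed Ugt level was 21.6 to 33.2 CPM in MI_ART libraries, 29.8 to 31.4 CPM in MI libraries and 5.39 to 7.48 CPM in Sham libraries.

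With artesunate, fewer members were called against Sham in the fit of all 3 groups, and all were also called in MI. That fit gave 7 members higher and 14 lower in MI_ART than Sham. These were 29.2% of the tested members, against 20.3% of all tested genes (12.9% higher and 7.41% lower). The numbers were closer when only the 2 groups compared were fitted. Then 8 members were higher and 19 lower in MI_ART than Sham, and 11 higher and 17 lower in MI than Sham. Over all genes, the 2-group fit called 3403 higher and 2538 lower of 18198 in MI_ART. In MI it called 3134 higher and 2002 lower of 18293, so over all genes more were called in MI_ART. At an unadjusted p under 0.05 there were 35 members (48.6% of those tested), against 33.3% of all genes. The groups did not overlap for 41 of 72 tested members, against 48.2% of all genes. Of the tested members, 12 (16.7%) lay wholly above Sham and 29 (40.3%) wholly below, against 25.4% and 22.8% of all tested genes. The median log2 fold change was -0.42 over the tested members and 0.01 over all genes, and with total counts 0.32 and 0.75. Both comparisons use the same Sham libraries, so the 21 shared calls are not independent. The numbers changed when single libraries were left out, as did those of all genes. Of members higher, 4 were left without Sham 1, 3 without Sham 2, 4 without MI_ART 1 and 2 without MI_ART 3. Of members lower, 9 were left without Sham 1, Sham 2 or MI_ART 3, 8 without Sham 3 or MI_ART 1, and 23 were called without MI 4. Over all genes, lower calls numbered 1433 in the full fit, 784 without Sham 1 and 455 without MI_ART 1. They were 659 without MI_ART 3 and 2896 without MI 4. Higher calls numbered 2488 in the full fit, 1843 without Sham 1 and 1838 without Sham 2. They were 1596 without MI_ART 1 and 1797 without MI_ART 3.

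The 11 members called in MI and not in MI_ART against Sham are not thereby shown to differ between MI_ART and MI. That contrast was tested itself. In MI_ART against MI edgeR called 0 members, against 2 of 19326 genes (0.0103%), both lower. At an unadjusted p under 0.05 there were 11 members (15.3% of those tested), against 6.96% of all genes. The groups did not overlap for 12 of 72 tested members, against 13.9% of all genes. Of tested members 10 lay wholly above MI in all 3 MI_ART libraries (13.9%) and 2 wholly below (2.78%), against 7.38% and 6.52% of all genes. DESeq2 called 3 of the 67 members it tested, all higher in MI_ART. Over the 18753 genes it tested, it called 85, with 45 higher and 40 lower.

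These 3 were Cyp4b1, Ces1d and Cyp1a1, whose per-library values are given above. Cyp4b1 was higher in MI_ART than MI by 0.74 ± 0.15 on the log2 scale (1.67-fold), with an adjusted p of 0.519 in edgeR and 0.00972 in DESeq2. Ces1d was higher by 1.33 ± 0.33 (2.51-fold), with 0.6503 in edgeR and 0.0335 in DESeq2. For both genes the 3 MI_ART libraries stood above the 3 MI libraries, and all 6 stood below Sham. Cyp1a1 had reads in 2 of 3 MI_ART libraries and in no MI library, so the groups overlapped at 0. Its adjusted p was 0.656 in edgeR and 0.0347 in DESeq2, and with MI set at 3 reads per library it was at least 3.03-fold higher in MI_ART. The other members with the smallest p were Cyp3a13 (log2 1.89) and Nr1i3 (log2 -1.91), neither of which passed in either tool.

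Genes that work with these families, taken as 6 lists, were described by the same fit. Over all tested genes, 18.8% were called higher and 14.3% lower in MI than Sham, and 12.9% and 7.41% in MI_ART. The counts of each list are to be read beside these shares. List counts given with total counts are to be read beside that setting's 9527 genes higher and 644 lower of 19326 in MI. Of 7 partners and targets of Ahr, 2 rose and 1 fell in MI, and 2 rose and 0 fell in MI_ART, against Sham. The share that fell in MI was near that of all genes. Serpinb2, a plasminogen activator inhibitor, was at 12.1, 1.75 and 5.15 CPM in MI_ART libraries, 13.2, 12.4 and 1.85 CPM in MI libraries and 0 to 0.158 CPM in Sham libraries (adjusted p = 0.00226 in MI). Arnt2, a partner protein related to the Ahr dimer partner, rose 3.24-fold in MI (adjusted p = 0.0203). Nqo1, a quinone reductase induced through Ahr and NRF2, fell 2.09-fold in MI (log2 -1.06, adjusted p = 0.0233), with 41.7 to 43.4 CPM in MI_ART libraries, 15.0 to 39.8 CPM in MI libraries and 46.4 to 67.1 CPM in Sham libraries.

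Among 10 P450 electron donors and haem supply genes 3 rose and 2 fell in MI, and 0 rose and 2 fell in MI_ART. Cyb5r3, the cytochrome b5 reductase, rose 2.82-fold in MI (adjusted p = 0.00342). Fdx1, the ferredoxin that serves mitochondrial P450s, fell by 0.91 on the log2 scale in MI (adjusted p = 0.00859) and by 0.91 in MI_ART (adjusted p = 0.0137), and Alas1, the first enzyme of haem synthesis, fell by 0.76 and 0.87 (adjusted p = 0.0238 and 0.0205). With total counts 8 of the 10 rose and 0 fell in MI, where 9527 of all 19326 tested genes rose and 644 fell.

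Of 23 other phase 1 enzymes 7 rose and 8 fell in MI, and 4 rose and 4 fell in MI_ART. Aldh1a2, which makes retinoic acid, rose 4.88-fold in MI, with 45.2 to 77.1 CPM in MI_ART libraries, 51.8 to 58.7 CPM in MI libraries and 8.73 to 14.6 CPM in Sham libraries. Maob, a monoamine oxidase, fell 4.82-fold, and Ephx2, the soluble epoxide hydrolase that breaks down fatty acid epoxides, fell 3.61-fold in MI. Of 21 tested conjugation enzymes outside the Gst and Ugt families, 6 rose and 6 fell in MI, and 4 rose and 5 fell in MI_ART. Sult1a1, a phenol sulphotransferase, fell 5.26-fold and As3mt, the arsenic methyltransferase, fell 2.42-fold in MI. Ugdh, which supplies the UDP-glucuronic acid that Ugt enzymes use, rose 2.68-fold in MI.

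Of 15 tested drug transporters 1 rose and 7 fell in MI, and 1 rose and 3 fell in MI_ART, whereas with total counts 6 rose and 3 fell in MI. Abcc3, an exporter of glucuronides, rose 11.97-fold in MI, with 9.43 to 23.2 CPM in MI_ART libraries, 14.2 to 14.6 CPM in MI libraries and 0.750 to 1.66 CPM in Sham libraries. Abcc9, the regulatory subunit of cardiac potassium channels, fell 5.09-fold and Abcb1a, the P-glycoprotein of vessel walls, fell 3.06-fold. Of 13 tested nuclear receptors and NRF2 regulators 0 rose and 2 fell in MI and 1 fell in MI_ART, a share near that of all genes called lower, and with total counts 9 rose and 1 fell in MI. The 2 that fell were Rxrg, a retinoid X receptor (3.54-fold, adjusted p = 0.000747), and Ppara, the fatty acid-sensing receptor (2.54-fold, adjusted p = 0.0390). No gene of the 6 lists was called in MI_ART against MI in edgeR.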

How the data were processed

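Messenger RNA was sequenced in 9 libraries, 3 per group by their labels. The authors deposited unnormalised read counts with Ensembl gene identifiers, as 1 table of the series and a file per library. The series table was used. The submitters' processing notes name HISAT, DESeq 1.8.3, featureCounts 1.5.0-p3 and, as build, GRCm38. How strand and multi-mapped reads were handled is not given in the sources used here, and reads of overlapping or near-identical genes cannot be told apart.

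Counts were fitted in R 4.3.3 with edgeR 4.0.16 (filterByExpr, TMM scaling, 1 mean per group, quasi-likelihood F tests). Calls are at an adjusted p under 0.05 (Benjamini-Hochberg over 19326 genes). Unless DESeq2 is named, adjusted p-values are from this edgeR fit. CPM is the read count scaled by the TMM-adjusted library size, and fold changes are fitted values. A bound for a group with no reads sets each of its libraries at 3 reads and covers counting error only; 3 reads were 0.0322 to 0.0592 CPM. Results were recomputed under 18 alternatives, among them DESeq2 1.42.0, other scalings and leaving out each library; 1 of them, leaving out Sham 1, MI 4 and MI_ART 3 together, was chosen after seeing the data.

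Members and gene lists were chosen with earlier results of these data known. Named members are the 5 regulators, the Cyp1 genes, in each comparison against Sham up to 12 called members per direction with the smallest p, provided 1 group averaged 1 CPM or more, in MI_ART against MI the 5 with the smallest p, the 10 with the highest mean CPM, and the 2 highest per family. At most 3 genes with the smallest p are named per other pathway list. A withheld item is not reported here by name. Members named outside this rule are marked as chosen after their values were seen. Positions are from a RefSeq table of the same build, which matched 207 of 211 members.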

Additional observations from a re-analysis of the deposited data

How the results depend on the processing

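With TMM, 11 members were higher and 21 lower in MI than Sham, and 7 higher and 14 lower in MI_ART than Sham. Total counts gave 19 and 12, and 13 and 4, because the median of all genes moved to 0.88 and 0.75; higher calls over all genes then made up 93.7% and 98.5%, against 56.7% and 63.5% with TMM. Under total counts the fold changes of Gstm5 (0.31), Gsto1 (0.0848) and Cyp27a1 (0.0543) in MI and of Gsto1 (0.18) in MI_ART, all lower with TMM, turned positive. DESeq2 called 3 of 67 members and 45 of 18753 genes higher in MI_ART than MI, against 0 of 72 and 0 of 19326 in edgeR. Leaving out 1 library gave 5 to 11 higher and 17 to 28 lower in MI, and 2 to 8 higher and 8 to 23 lower in MI_ART. Over all genes it gave 2854 to 3620 higher and 1952 to 3081 lower in MI. In MI_ART it gave 1596 to 3434 genes higher and 455 to 2896 lower. Without Sham 1, MI 4 and MI_ART 3 together there were 7 higher in MI and 4 higher in MI_ART, against 2855 and 2303 of 19476 genes.

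Replicate numbers did not pair the libraries: same-numbered libraries had correlations of -0.0356 to 0.0932 between their deviations from group means. With the number as a replicate block, 10 members were higher and 28 lower in MI, 8 and 20 in MI_ART, and 0 and 0 in MI_ART against MI. The MI calls of Ahrr and Cyp26a1 were lost in that fit.

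Of 1781 alternative values for 99 named-member comparisons, whether called or not, 1566 kept direction and side of the threshold. Calls were less stable. Of all members called in MI against Sham, 5 of 11 higher and 11 of 21 lower held in every alternative. In MI_ART against Sham 2 of 7 higher and 2 of 14 lower did. Where 3 reads or fewer were counted, depth could not show a difference.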
